A study of Mus musculus with 17 samples.

Results

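Cluster 3 was set against cluster 6 of the scRNA-seq data of the mouse brain, gene by gene. The study's methods assign cluster 6 to microglia and cluster 3 to monocytes, from marker genes. In each of 2 libraries the mean over the cells of cluster 6 was subtracted from the mean over the cells of cluster 3, and the 2 differences were averaged. A difference counted when its sign was the same in both libraries. Of the 26646 genes in the table, 16816 met this rule, with 7888 higher in cluster 3 and 8928 higher in cluster 6. Another 4878 genes had opposite signs in the 2 libraries, and 4952 did not differ in at least 1 library, 2282 of them because they were at 0 in all 4 columns.

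The mice were wild-type female ICR animals, 8 weeks old at the lesion, and both groups carried a unilateral injection of 6-OHDA (6-hydroxydopamine, a toxin of catecholamine neurons, at 10 µg per µL) into the substantia nigra, which models Parkinson's disease (PD). The group called 6-OHDA received saline afterwards. The group called 6-OHDA+NDST3 received 2 µL of what the methods call NDST3, at the same site 5 days after the lesion. NDST3 encodes an enzyme of heparan sulfate synthesis, and the study gave it as a gene in a viral vector. The study's methods describe an adeno-associated virus (AAV) vector that carries the human NDST3 gene under the ubiquitous CMV promoter. They also describe a lentiviral vector with NDST3 under the CMV promoter, and do not say which was used for these libraries. Effects of the vector and of the gene cannot be told apart in these libraries. Each group is 1 library, the animals behind a library are not given in the sources used here, and the sham library was not analysed here. Tissue was dissociated with enzymes, myelin was removed on a Percoll gradient, and red blood cells were lysed. Throughout, 2 values given together are those of the 6-OHDA library and then of the 6-OHDA+NDST3 library.

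Microglia are the resident macrophages of the brain. In healthy tissue they are known by a set of receptors and regulators, among them the purine receptor P2ry12 and the membrane protein Tmem119, whose expression depends on TGF-beta signalling. Near damaged neurons and myelin, phagocytes of the brain are known to lower these genes and to raise genes for lipid transport, lysosomes and galectins, and monocytes that enter from the blood can come to express many of the same genes.

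Each value is the mean over the cells of a cluster of the natural log of 1 plus the UMI count per 10000 UMIs of the cell, where a UMI marks 1 captured RNA molecule. Differences are therefore in natural-log units and are not fold changes, and a higher share of expressing cells and a higher level per cell cannot be told apart. With 1 library per group, and with clusters made from these same genes, no test was made and no error can be given. Agreement in sign between the libraries is the only check. Genes with a mean of at least 0.1 in at least 1 of the 4 columns (7222 genes) were described further. Among them, 3276 (45.4%) were higher in cluster 3 in both libraries, 3413 (47.3%) were higher in cluster 6, and 533 had opposite signs or no difference. A gene was called when its mean difference also reached 0.5, which held for 211 genes higher in cluster 3 (2.92%) and 168 higher in cluster 6 (2.33%). The counts of called genes per list below are to be set against these 2 shares. Rescaling the 4 columns to the same total turned this split to 157 and 239. At the threshold, Lrpap1 (0.500133) lay just inside and Hilpda (0.499917) just outside for cluster 3, and Mcl1 (-0.500373) just inside and Gm46367 (-0.497589) just outside for cluster 6.

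The 2 libraries gave nearly the same differences. Over the 7222 genes, Pearson's r between the differences of the 2 libraries was 0.981, where genes are not independent and cells of both libraries were clustered together. The SD of the change in difference from library to library was 0.0491, against an SD of 0.228 for the mean difference itself. Among genes with opposite signs, no mean difference was larger than 0.0791 (Fgf13).

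**Figure D1:**
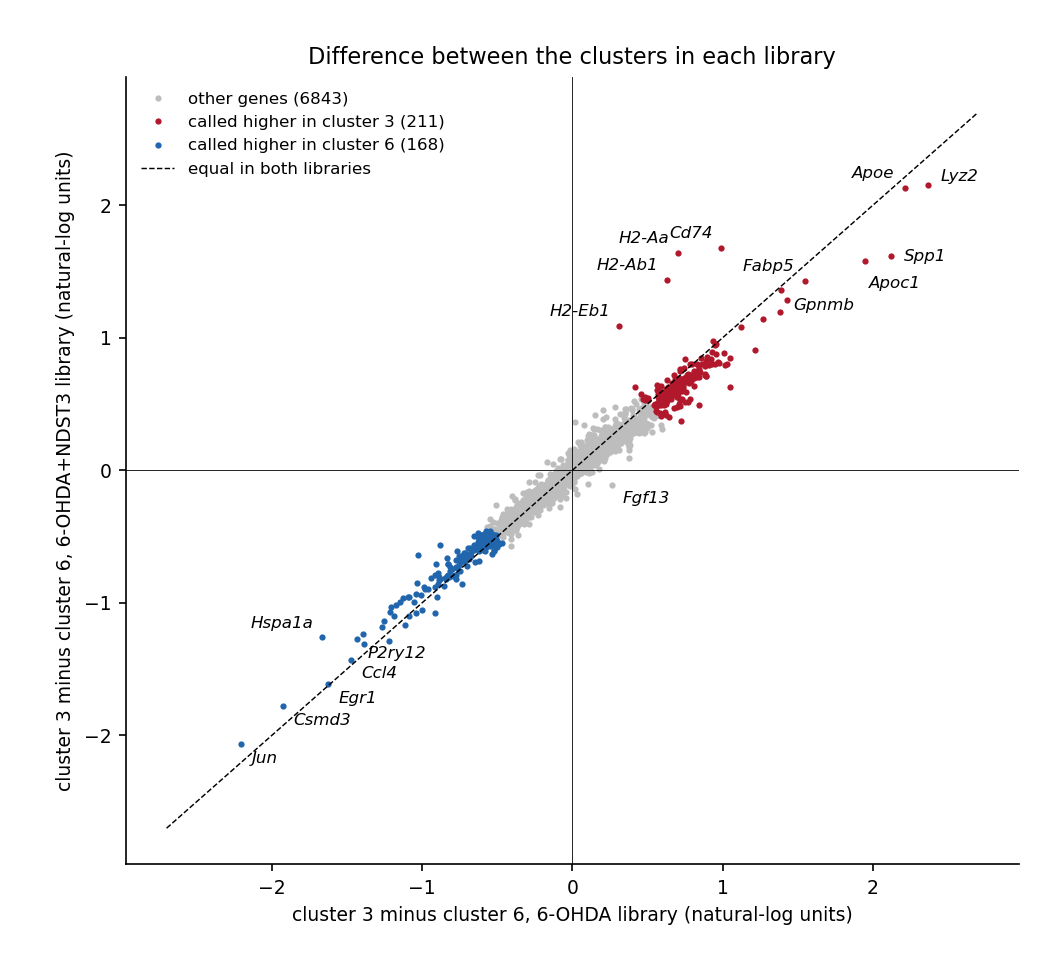
Each point is 1 of the 7222 genes, placed by the cluster 3 minus cluster 6 difference in the 6-OHDA library (horizontal axis) and in the 6-OHDA+NDST3 library (vertical axis), both in natural-log units. The 211 genes called for cluster 3 are red, the 168 called for cluster 6 are blue, and the dashed line marks equal differences. Cd74, H2-Aa, H2-Ab1 and H2-Eb1 lie farthest above the line.

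Both clusters shared most of their profile. Averaged over the libraries, cluster 3 and cluster 6 had a Pearson's r of 0.910 over 11758 genes, and the next highest for cluster 3 was 0.842, with cluster 1. The genes called for cluster 6 were mostly those highest in that cluster, since 121 of the 168 (72.0%) had their highest mean of all 9 clusters there. Of the 211 genes called for cluster 3, 52 (24.6%) were highest in cluster 3, while 64 were highest in cluster 4, 37 in cluster 9 and 33 in cluster 1. Most of the genes called for cluster 3 were thus higher still in another cluster. These included 77 ribosomal protein genes, nearly all highest in cluster 4 or 9, and 8 mitochondrial genes, highest in cluster 2 or 5. The peak cluster of the other called genes was not counted separately.

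The labels were checked against markers. Of the 8 microglia markers, 4 were called higher in cluster 6 and none in cluster 3, and their summed level was 4.55 and 4.17 in cluster 3 against 9.84 and 8.95 in cluster 6. All 8 were above 0.1 in cluster 3 too. Of the 8 markers of monocytes or macrophages, 4 were above 0.1 in any column and Lyz2 was called. Their sum was 4.48 and 4.18 in cluster 3, of which Lyz2 made up 3.84 and 3.29, against 1.62 and 1.27 in cluster 6. The defining blood monocyte genes Ly6c2, Ccr2 and Plac8 reached at most 0.02, 0.05 and 0.04 in cluster 3, and the border macrophage genes Cd163 and Lyve1 at most 0.02 each. Lyz2 and Sash1, markers by which the study names cluster 3, were called, while its other markers were near level or near 0. C1qc was at 2.86 and 3.10 in cluster 3 against 2.76 and 2.84 in cluster 6, and the mannose receptor Mrc1 at 0.10 and 0.16 against 0.06 and 0.04. Of the 7 markers by which the study names cluster 6, 3 were called for cluster 6 (P2ry12, Tmem119 and Gpr34). Sall1 was also higher there in both libraries. Cd68, called, and Aif1 (0.19) were higher in cluster 3 in both libraries, and Fcrls had opposite signs. In the longer list of monocyte genes described below, all 8 members above the floor were higher in cluster 3 in both libraries. Because the markers did not all point 1 way, the cluster is named by its number here. The part of monocyte-derived cells in cluster 3 was not tested.

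In cluster 3, genes of lipid-laden phagocytes were among those that stood highest over cluster 6. Lyz2 (lysozyme 2, an antibacterial enzyme of macrophages, on chromosome 10 of GRCm38 from 117277331 to 117282321) was at 3.84 and 3.29 in cluster 3 and at 1.47 and 1.14 in cluster 6, a mean difference of 2.26. Apoe (apolipoprotein E, a carrier of cholesterol) was at 6.44 and 6.22 against 4.23 and 4.09, a difference of 2.17. The 6.44 was the highest value in the table. Spp1 (osteopontin, a secreted matrix protein) was at 2.89 and 2.04 against 0.77 and 0.42, a difference of 1.87. Gpnmb, a lysosomal glycoprotein, was at 1.53 and 1.49 in cluster 3 but at only 0.14 and 0.13 in cluster 6. For each of these genes both cluster 3 values lay above both cluster 6 values, and cluster 3 had the highest mean of the 9 clusters.

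Of 25 genes known from disease-associated, lipid-handling phagocytes, 24 were in the table and all 24 were above 0.1 in some column. Cluster 3 was called higher for 16 of them and cluster 6 for none, with a median difference of 0.59, against -0.00234 over all 7222 genes. Next to Apoe, Spp1 and Gpnmb, these included the fatty acid carrier Fabp5 (1.82 and 1.70 against 0.27 and 0.27), the tetraspanin Cd63 of late endosomes (2.72 and 2.56 against 1.29 and 1.27) and galectin-3, Lgals3 (1.42 and 1.34 against 0.15 and 0.20). Igf1, a growth factor, was at 0.78 and 0.57 in cluster 3 and at 0.06 and 0.04 in cluster 6. Not all members were on this side by 0.5. Trem2, the lipid-sensing receptor of these cells, was at 2.48 and 2.31 against 2.13 and 2.08, a difference of 0.29. Cd9 was nearly level (-0.07) and Csf1 was higher in cluster 6 (-0.16).

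Genes of cholesterol and fatty acid handling pointed the same way, and part of this list is shared with the last. Of 25 members above the floor, 8 were called higher in cluster 3 and none in cluster 6, and the median was 0.28. The apolipoprotein Apoc1 was at 2.41 and 1.94 against 0.46 and 0.36. The cholesterol exporter Abca1 was at 1.97 and 1.84 against 0.96 and 0.95, and Npc2, which hands cholesterol out of lysosomes, at 2.64 and 2.66 against 1.96 and 1.94. The lipoprotein lipase Lpl was at 1.05 and 0.63 against 0.20 and 0.13. Npc1, the membrane partner of Npc2, did not follow and differed by 0.02.

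Among lysosomal proteases and hydrolases, 5 of 23 were called higher in cluster 3 and none in cluster 6, with a median of 0.25. Beside Cd63, they were Cd68, Ctsz, Psap and Lamp1, whose differences ran from 0.51 to 0.59. Cd68, a lysosomal protein used by the study as a marker of cluster 6, was at 1.75 and 1.62 in cluster 3 and at 1.13 and 1.05 in cluster 6. Lgmn, a protease that is abundant in resting microglia, was on the other side at -0.36. The 16 subunits of the lysosomal proton pump split evenly, 8 to each cluster in both libraries, much as all genes did (45.4% and 47.3%). Their median was -0.02, and Atp6v1f (0.53) was the only one called.

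Most glycolysis genes were higher in cluster 3, 14 of 16 in both libraries, against 45.4% of all genes. Of the 16 glycolysis genes, 6 were called for cluster 3 and none for cluster 6, with a median of 0.46. Gapdh was at 2.11 and 1.91 against 1.22 and 1.20, and Aldoa at 1.60 and 1.41 against 0.72 and 0.70. The hexokinase Hk2, which opens the pathway, was level (-0.04). Of 15 iron and antioxidant genes, 3 were called for cluster 3 and none for cluster 6. The ferritin heavy chain gene Fth1, whose product stores iron, was at 4.93 and 4.84 against 3.55 and 3.64, and the peroxidases Prdx1 and Gpx4 differed by 0.72 and 0.54. The iron exporter Slc40a1 (-0.19) and heme oxygenase Hmox1 (-0.25) lay the other way.

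In the list of monocyte genes, 3 of 8 above the floor were called higher in cluster 3 and none in cluster 6. Next to Lyz2 they were fibronectin, Fn1 (1.17 and 0.72 against 0.12 and 0.09), and the hyaluronan receptor Cd44 (0.84 and 0.93 against 0.15 and 0.24). The other 10 genes of the list stayed under 0.1 in all 4 columns. Of 18 genes of border-associated macrophages, 8 passed the floor and none was called. The largest differences there were those of Dab2 (0.45) and Ms4a7 (0.40), and Ms4a7 was at 0.39 and 0.47 in cluster 3 and at 0.04 and 0.03 in cluster 6. In the matrix list, 5 of 14 were called for cluster 3 (Spp1, Lgals3, Vim, Fn1 and Timp2) and 2 for cluster 6. These 2 were Sparc, a collagen-binding protein (1.55 and 1.15 against 2.45 and 2.10), and the protease Adamts1 (0.39 and 0.30 against 1.65 and 1.48).

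In cluster 6, genes of resting microglia were higher. Of 26 homeostatic genes, 13 were called higher in cluster 6 and none in cluster 3, and the median was -0.52. P2ry12, the ADP receptor that guides microglial processes, was at 0.43 and 0.47 in cluster 3 and at 1.86 and 1.74 in cluster 6. Tmem119 was at 0.32 and 0.46 against 1.53 and 1.53, and the lectin Siglech at 0.29 and 0.28 against 1.38 and 1.24. Other members differed less. The growth factor receptor Csf1r was at 1.85 and 1.80 against 2.45 and 2.32, and the fractalkine receptor Cx3cr1 at 1.70 and 1.59 against 2.29 and 2.16. Fcrls, which is otherwise a microglial gene, was at 1.44 and 1.00 in cluster 3 and at 1.34 and 1.02 in cluster 6, and was the only member whose sign differed between the libraries. P2ry12, Tmem119 and Cx3cr1 had their second highest mean of the 9 clusters in cluster 3.

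P2ry12 lies on chromosome 3 of GRCm38 from 59216272 to 59262871 in GENCODE, on the minus strand. The start site used below is from RefSeq and lies upstream of this span. The bases from 100 to 21 before its start site are shown because this receptor had the largest difference of the homeostatic genes, with the core of the site of PU.1 (GGAAGT), a factor of all macrophages, in capitals:
P2ry12 (chr3:59263006-59263085, minus strand): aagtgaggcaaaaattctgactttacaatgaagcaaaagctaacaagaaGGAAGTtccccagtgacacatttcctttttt
This motif was searched on both strands in RefSeq windows of 250 bases before to 50 after a start site (GRCm38). It was in 34.9% of the 192 windows of genes called for cluster 3 (159 of 211 genes matched), in 34.9% of the 189 windows of genes called for cluster 6 (135 of 168 matched) and in 23.8% of all 32851 windows. Spi1, which encodes PU.1, was at 1.51 and 1.51 in cluster 3 and at 1.70 and 1.68 in cluster 6.

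Over all genes above the floor, 47.3% were higher in cluster 6 in both libraries. Of 22 myeloid transcription factors above the floor, 17 were higher in cluster 6 in both libraries, 3 of them by at least 0.5. None was called for cluster 3. Called for cluster 6 were Mef2a (1.36 and 1.41 against 2.37 and 2.35), Mef2c (1.17 and 1.17 against 2.09 and 2.05) and Runx1 (1.42 and 1.56 against 2.13 and 2.25). Sall1, a microglia-specific factor, was at 0.13 and 0.12 in cluster 3 and at 0.43 and 0.42 in cluster 6. Bhlhe40 and Cebpb, both at 0.40, were the factors that stood highest over cluster 6. In the TGF-beta pathway, 4 of 12 genes were called for cluster 6 and none for cluster 3, against 2.33% and 2.92% of all genes. The 4 were the receptors Tgfbr1 (1.85 and 1.78 against 2.50 and 2.47) and Tgfbr2 (1.04 and 1.02 against 1.56 and 1.51) and the feedback inhibitors Smad7 and Skil (differences of -0.62 and -0.72). The ligand Tgfb1 itself was nearly level, at -0.05.

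Among the largest differences toward cluster 6 were those of immediate early genes, which cells switch on within minutes of a stimulus and which enzymatic dissociation of tissue is known to induce. Jun, a subunit of the factor AP-1 on chromosome 4 of GRCm38 from 95049034 to 95052222, was at 1.13 and 1.10 in cluster 3 and at 3.33 and 3.16 in cluster 6, a difference of -2.13. Egr1 was at 0.63 and 0.54 against 2.25 and 2.15, and Atf3 at 1.37 and 1.45 against 2.75 and 2.76. Of 21 genes on the list of the immediate early and dissociation response, 16 were called higher in cluster 6 and none in cluster 3, and the median was -0.78. The list summed to 22.92 and 22.94 in cluster 3 and to 41.05 and 39.85 in cluster 6. Not all members took part: Ier3 was level (0.00) and Fosb differed by -0.09. The part of dissociation in these differences was not tested.

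Heat shock genes of the same list were also higher in cluster 6. Hspa1a was at 0.41 and 0.28 in cluster 3 and at 2.08 and 1.53 in cluster 6, and Hspa1b at 0.20 and 0.15 against 1.23 and 0.79. Both encode the inducible chaperone HSP70, are near-identical copies side by side on chromosome 17, and could share reads, so the split between them is uncertain. The bases from 150 to 21 before each start site are shown because they were the same in all 130 positions. Capitals mark a heat shock element (GAANNTTC, in 7.86% of all windows) and then a CCAAT-containing Y box (CTGATTGG), which do not overlap:
Hspa1a (chr17:34972177-34972306, minus strand): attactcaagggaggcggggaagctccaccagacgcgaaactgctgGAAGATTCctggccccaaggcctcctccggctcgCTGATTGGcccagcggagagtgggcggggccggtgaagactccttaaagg
Hspa1b (chr17:34959259-34959388, minus strand): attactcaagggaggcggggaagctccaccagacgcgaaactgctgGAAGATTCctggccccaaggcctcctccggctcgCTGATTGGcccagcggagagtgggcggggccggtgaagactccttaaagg
Both genes were lower in the 6-OHDA+NDST3 library in both clusters, and Hspa1a was the only gene lower by at least 0.5 in cluster 6 (1 gene, 0.0138%).

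**Figure D2:**
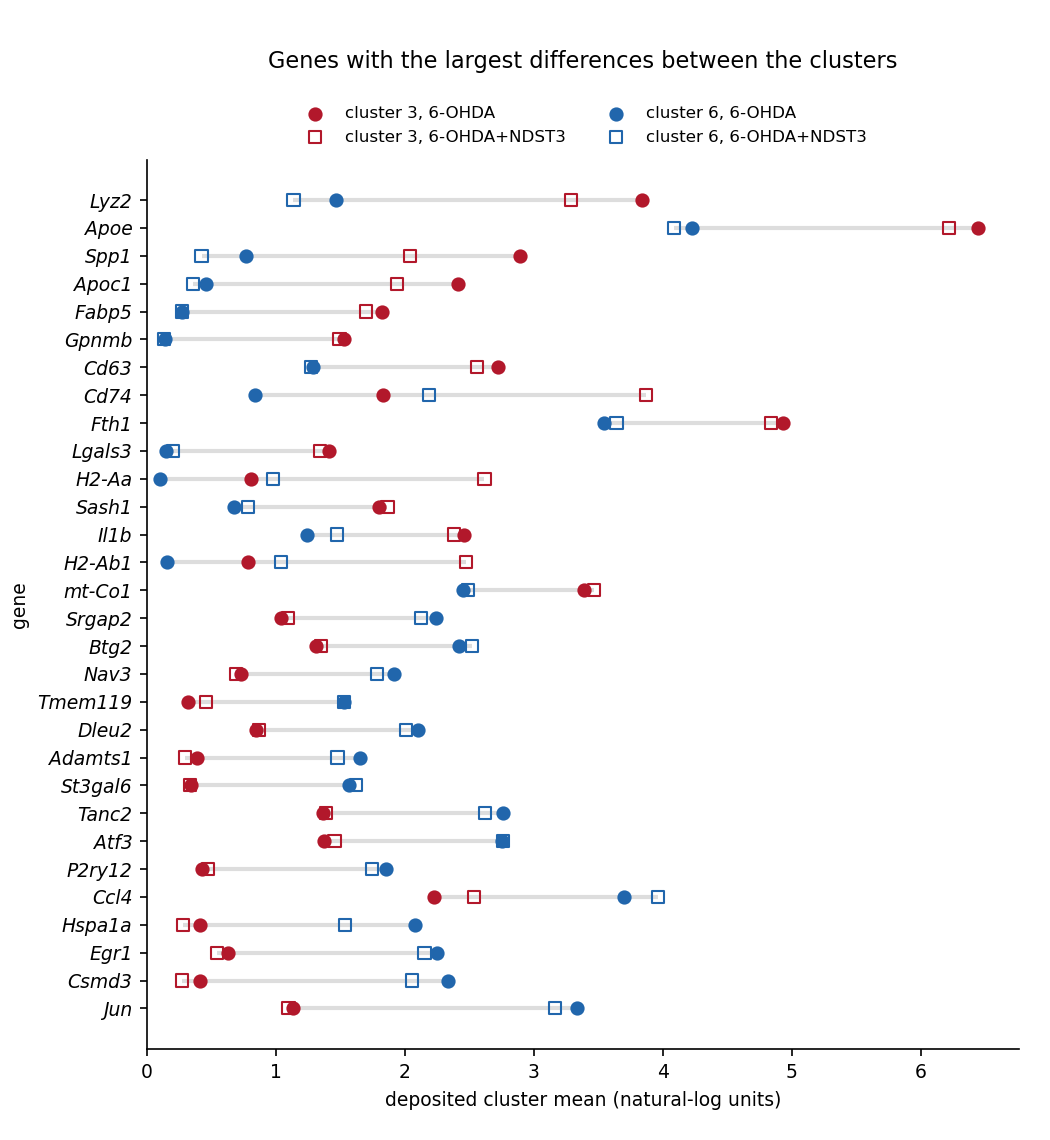
The 15 genes with the largest mean difference toward each cluster are on the vertical axis, and the deposited cluster mean in natural-log units is on the horizontal axis. Filled circles are the 6-OHDA library and open squares the 6-OHDA+NDST3 library, red for cluster 3 and blue for cluster 6. Apoe is the highest of the genes shown in both clusters, and red and blue symbols interleave only for Cd74, H2-Aa and H2-Ab1.

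Inflammatory signals were split between the clusters. Of 14 chemokine genes, 3 were called for cluster 3 and 2 for cluster 6, and the median was 0.06. Ccl4 was at 2.23 and 2.54 in cluster 3 and at 3.70 and 3.96 in cluster 6, and its neighbour Ccl3 at 1.63 and 1.78 against 2.55 and 2.86. The neutrophil attractant Cxcl2 went the other way, at 1.72 and 1.25 in cluster 3 against 0.71 and 0.46, as did Ccl6 (0.55) and Cxcl14 (0.52). The paralogs of interleukin 1 were called in opposite directions. Il1b was at 2.46 and 2.38 in cluster 3 and at 1.24 and 1.47 in cluster 6, while Il1a was at 1.22 and 1.37 against 1.75 and 1.92. Their antagonist Il1rn lay with Il1b, at 0.67 and 0.66 against 0.09 and 0.10. Tnf (0.96 and 0.91 against 1.37 and 1.48) stayed under the size rule with a difference of -0.49. Il1b and Cxcl2 had their highest mean of the 9 clusters in cluster 1, not in cluster 3.

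Receptors for debris and for signals of neurons divided too. Of 22 scavenger and phagocytic receptors, 2 were called for each cluster. The adaptors Tyrobp (3.36 and 3.12 against 2.57 and 2.44) and Fcer1g (2.74 and 2.69 against 2.07 and 2.03), which pass on signals of Trem2 and of Fc receptors, were higher in cluster 3. Mertk, a receptor for dying cells (0.61 and 0.75 against 1.29 and 1.33), and Sirpa, which receives the inhibitory signal of CD47 (1.40 and 1.45 against 1.96 and 2.01), were higher in cluster 6. Axl, of the same receptor family as Mertk, was at 1.09 and 1.02 against 0.59 and 0.67, a difference of 0.43 to the side of cluster 3. Among 13 chemotactic and purine receptors, 3 were called for cluster 6, P2ry12 and Cx3cr1 among them, and none for cluster 3. Among 10 complement genes none was called. The 3 chains of C1q were nearly level, with differences of 0.18 to 0.24, and the receptor C3ar1 was at 1.09 and 1.13 against 1.55 and 1.56.

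**Figure D3:**
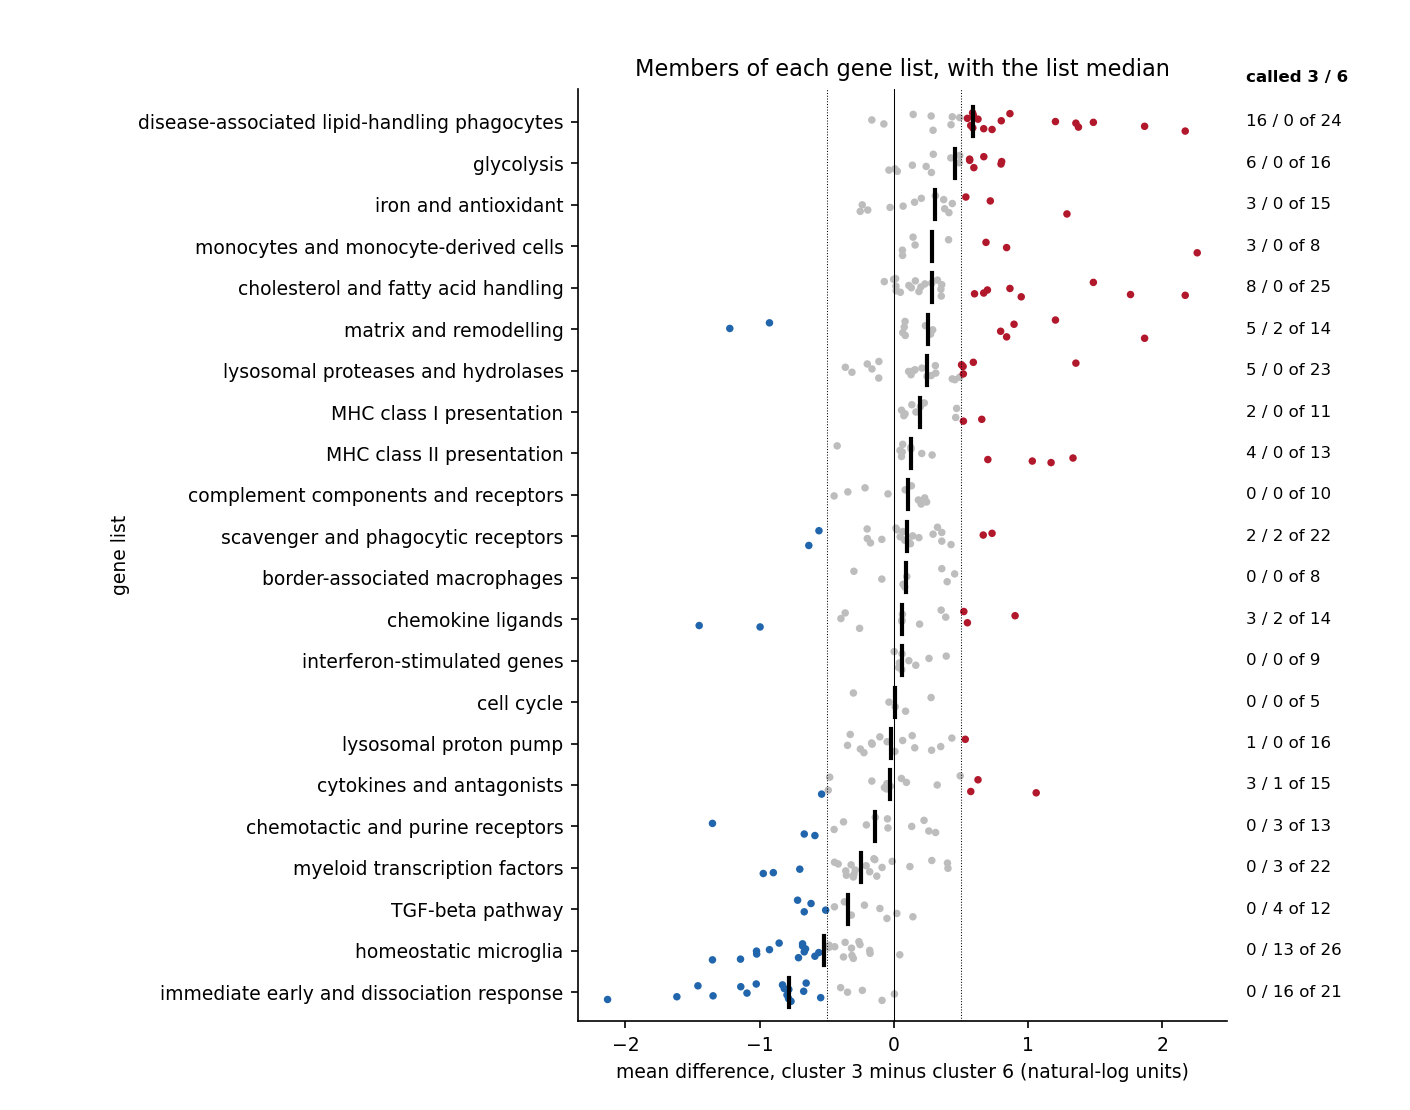
Each row is 1 of 22 gene lists, ordered by its median, and each point is a member with a mean of at least 0.1 in some column, placed by its mean cluster 3 minus cluster 6 difference in natural-log units. Red and blue members passed the size rule of 0.5 (dotted lines) for cluster 3 and cluster 6, black bars are medians, and the counts stand at the right. Lipid-handling phagocyte genes lie at 0.59 and immediate early genes at -0.78.

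Antigen presentation genes were higher in cluster 3, and for 4 of them this difference was less alike in the libraries than for any other gene. MHC class II molecules show peptides to CD4 T cells, and their genes share the transactivator Ciita. H2-Aa was at 0.81 and 2.62 in cluster 3 and at 0.10 and 0.98 in cluster 6. H2-Ab1, its partner chain, was at 0.79 and 2.47 against 0.15 and 1.04, and H2-Eb1 at 0.36 and 1.79 against 0.05 and 0.70. The invariant chain Cd74 was at 1.83 and 3.87 against 0.84 and 2.19. In both clusters the 6-OHDA+NDST3 library was the higher one, and for each of these 4 genes cluster 6 of that library was above cluster 3 of the 6-OHDA library.

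The difference between the clusters was larger in the 6-OHDA+NDST3 library by 0.94 for H2-Aa, 0.80 for H2-Ab1, 0.78 for H2-Eb1 and 0.68 for Cd74. These were the only genes whose difference shifted by at least 0.5 toward cluster 3 (4 genes, 0.0554%), and Spp1, at -0.51, the only one toward cluster 6 (1 gene, 0.0138%). The next largest changes were 0.41 for Hspa1a, and -0.42 for Fn1, -0.37 for Fgf13, -0.37 for Apoc1 and -0.35 for Lpl. Of 13 genes on the class II list, 4 were called higher in cluster 3 and none in cluster 6, and 12 were higher in the 6-OHDA+NDST3 library in both clusters (40.1% of all 7222 genes were). For 12 of the 13 the difference moved toward cluster 3 in that library (48% of all genes). Ciita was at 0.04 and 0.15 in cluster 3 and at 0.01 and 0.07 in cluster 6. The costimulator Cd86 went against the list, at 1.63 and 1.93 in cluster 3 against 2.05 and 2.35 in cluster 6. A single library per group leaves the spread of such a change unknown.

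B cell and dendritic cell markers give a measure of other cells that carry class II genes. Cluster 9 held the highest means of Cd74 (4.76) and H2-Aa (3.21). In clusters 3 and 6 the B cell genes Cd79a and Ms4a1 were under 0.1 in all 4 columns. Igkc was at 0.01 and 0.12 in cluster 3 and at 0.01 and 0.13 in cluster 6, so it was higher in the 6-OHDA+NDST3 library in both clusters. Ighm was at 0.11 and 0.19 against 0.44 and 0.48. The 8 B cell markers summed to 0.22 and 0.46 in cluster 3 and to 0.54 and 0.74 in cluster 6. Of 8 dendritic cell markers, 3 passed the floor and none was called, and their sum was 0.77 and 0.73 in cluster 3 and 0.86 and 0.82 in cluster 6. Fscn1, which bundles actin, made up most of it (0.48 and 0.41 against 0.73 and 0.68) and was higher in cluster 6. The other 2 above the floor were higher in cluster 3 in both libraries, with Ccr7 differing by 0.07. Of the rest, Flt3, Xcr1, Clec9a and Cd209a were at 0.03 or less in all 4 columns. The part of either cell type, or of the reported increase of cluster 9, in the library difference was not tested.

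The promoters of the class II genes are known for paired X and Y boxes. Those of 3 genes are shown as examples, chosen from the windows that held at least 1 of these boxes. These 3 genes were higher in the 6-OHDA+NDST3 library in both clusters, as 12 of the 13 genes on the list were. All 3 lie on chromosome 17 of GRCm38, and the bases from 120 to 21 before the start site are given 5′ to 3′ on the strand of the gene. Capitals mark the X box (AACNGATG) and Y box (CTGATTGG), and in H2-Aa also a cAMP response element (TGACGTCA), none of which overlap:
H2-Aa (chr17:34287844-34287943, minus strand): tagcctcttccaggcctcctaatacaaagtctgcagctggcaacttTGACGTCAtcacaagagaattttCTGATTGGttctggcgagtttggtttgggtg
H2-Eb1 (chr17:34305747-34305846, plus strand): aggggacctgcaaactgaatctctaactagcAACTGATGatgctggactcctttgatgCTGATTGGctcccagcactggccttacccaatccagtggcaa
H2-DMb1 (chr17:34153071-34153170, plus strand): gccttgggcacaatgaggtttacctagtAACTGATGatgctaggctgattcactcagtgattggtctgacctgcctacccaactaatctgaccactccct
On both strands, 4 of the 9 windows of class II list genes (8 of 13 genes matched) held these letters of the X box and 3 of 9 those of the Y box, against 2.32% and 4.10% of all windows. Only the window of H2-Eb1 held both boxes, and those of Cd80 and H2-DMa held neither. H2-DMb1, a chain of the peptide-loading factor, was at 0.41 and 0.85 in cluster 3 and at 0.33 and 0.51 in cluster 6, so it followed the library without passing the size rule between clusters.

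Class I genes, which show peptides to CD8 T cells, followed with smaller differences. All 11 genes were higher in cluster 3 in both libraries, against 45.4% of all genes. All 11 were also higher in the 6-OHDA+NDST3 library in both clusters, against 40.1% of all genes. H2-D1 (2.68 and 3.26 against 2.05 and 2.58) and H2-K1 (2.29 and 2.81 against 1.81 and 2.26) were called, though reads of this multigene family could be shared. The invariant chain B2m was at 2.60 and 2.88 against 2.18 and 2.38, and Nlrc5, the transactivator of class I, at 0.13 and 0.29 against 0.09 and 0.22. Of 9 interferon-stimulated genes above the floor, none was called. All 9 were higher in the 6-OHDA+NDST3 library in both clusters, against 40.1% of all genes. Bst2, which tethers virus particles to the cell, was at 0.77 and 0.96 in cluster 3 and at 0.41 and 0.53 in cluster 6.

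**Figure D4:**
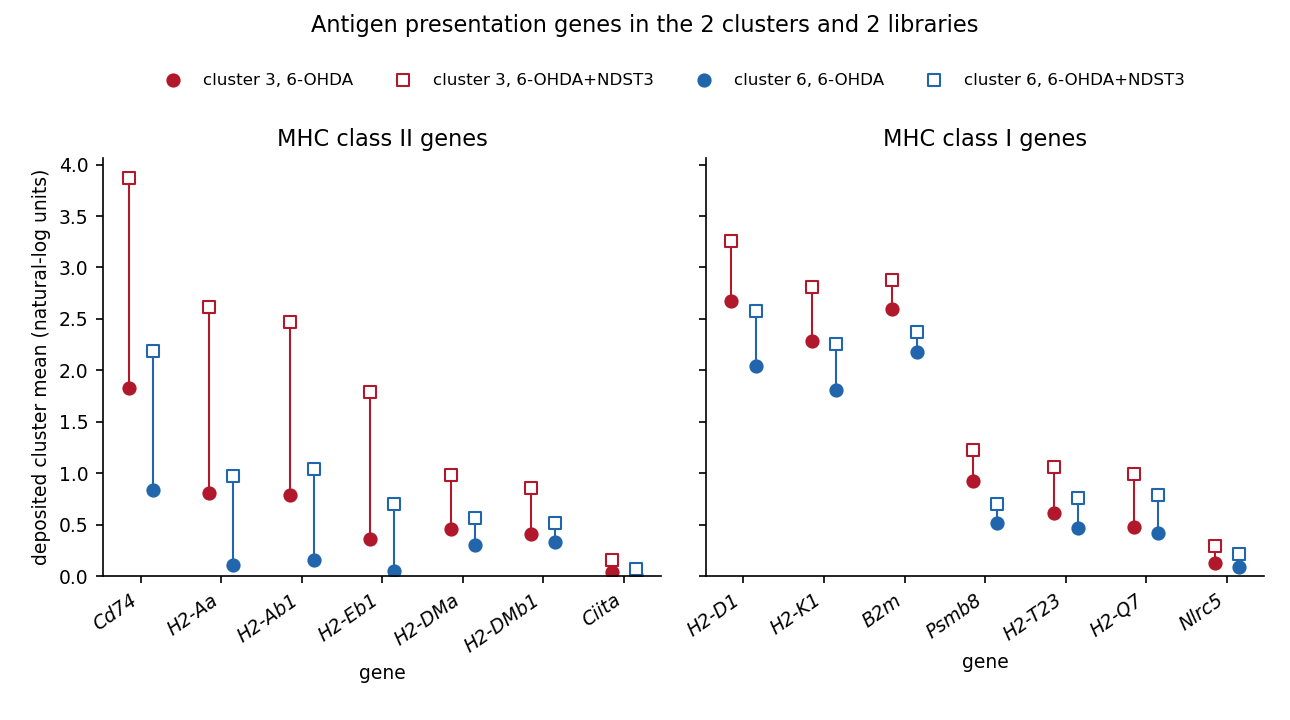
Deposited cluster means (vertical axis, natural-log units) of 7 class II list genes and 7 class I list genes in cluster 3 (red) and cluster 6 (blue). Filled circles are the 6-OHDA library, open squares the 6-OHDA+NDST3 library, and a line joins the 2 libraries of a cluster. Every gene shown is higher in the 6-OHDA+NDST3 library in both clusters, with H2-Aa at 0.81 and 2.62 in cluster 3.

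Lipid-handling phagocyte genes went the other way between the libraries. Of the 24, 17 were lower in the 6-OHDA+NDST3 library in both clusters and 1 was higher in both (27.9% of all genes were lower in both), and the median change was -0.18 in cluster 3 and -0.03 in cluster 6. In cluster 3, 9 genes were higher by at least 0.5 in the 6-OHDA+NDST3 library (0.125%) and 3 were lower (0.0415%), the latter being Spp1 (-0.85), Fgf13 (-0.66) and Lyz2 (-0.55). In cluster 6, 5 genes were higher (0.0692%), H2-D1 and the 4 class II genes.

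The classes of ribosomal protein genes and of mitochondrial genes also separated the clusters. Of 82 cytosolic ribosomal protein genes above the floor, 77 were called higher in cluster 3 and none in cluster 6, with a median of 0.68, so that they made up 77 of the 211 genes called for cluster 3. All 8 mitochondrial genes that were called lay on the same side, mt-Co1 among them (3.39 and 3.47 against 2.45 and 2.49). Without these 2 classes 126 genes were called for cluster 3 and 168 for cluster 6. Both classes were set by gene name. The ribosomal class takes in the like-named Rpl7l1, Rpl22l1 and Rps27l, none of them called, and leaves out Rpl36al, which was called for cluster 3. After back-transformation, ribosomal protein genes took 16.6% and 15.4% of the column total in cluster 3 and 8.56% and 8.32% in cluster 6, and mitochondrial genes 3.0% and 3.37% against 1.37% and 1.50%. Column totals were 7561 and 7288 in cluster 3 and 6486 and 6429 in cluster 6, and 21292 to 21737 genes were above 0 per column. The number of cells and the UMIs per cell were not analysed here, and their part in these differences was not tested.

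Genes called for cluster 6 were also long. The annotated span of a gene, introns included, had a median of 68.4 kb for the genes called for cluster 6, 5.04 kb for those called for cluster 3 and 28.1 kb for all genes above the floor with a span (7163 of 7222, GENCODE M21 on mm10). Spans over 100 kb were found for 43.5%, 4.29% and 15.5% of these. Csmd3, a membrane protein known from synapses, with a span of 1211 kb, was at 0.41 and 0.27 in cluster 3 and at 2.33 and 2.05 in cluster 6. Tanc2, a scaffold protein of 339 kb, was at 1.36 and 1.39 against 2.76 and 2.62, and Nav3, a microtubule-binding protein of 775 kb, at 0.73 and 0.69 against 1.92 and 1.79. Without the ribosomal and mitochondrial classes the median for cluster 3 was 9.29 kb, and without the immediate early list that for cluster 6 was 91.5 kb. Of the 1107 genes over 100 kb, 73 were called for cluster 6 and 9 for cluster 3, and of the 1579 under 10 kb, 29 and 146.

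**Figure D5:**
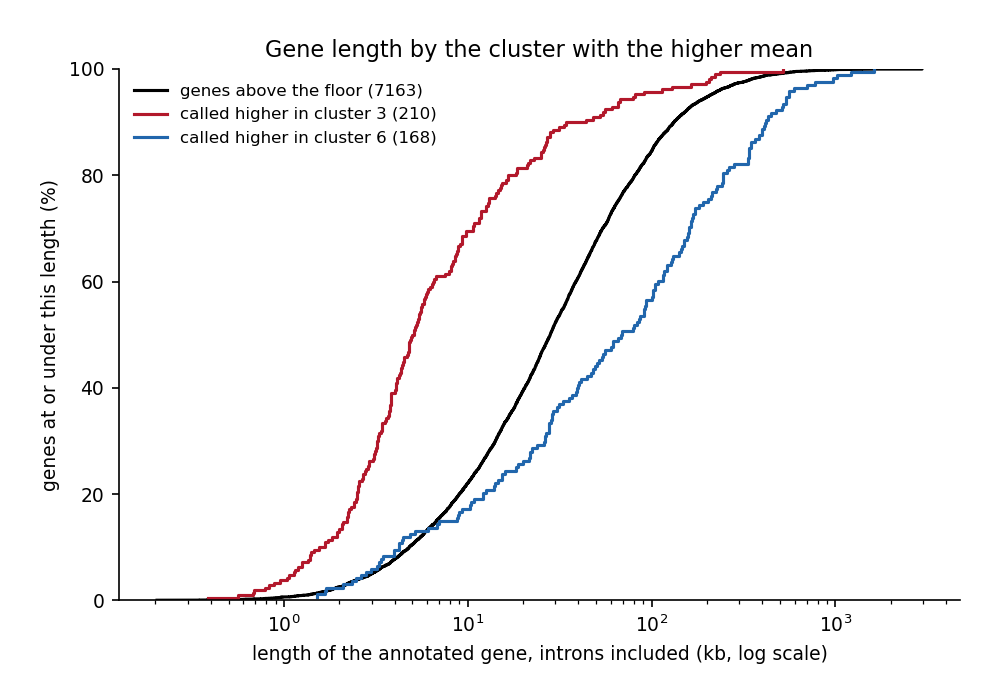
The horizontal axis is the length of the annotated gene, introns included, in kb on a log scale, and the vertical axis is the percent of genes at or under that length. The line of the 168 genes called for cluster 6 (blue, median 68.4 kb) lies at its median to the right of all genes (black, 28.1 kb) and meets them among the short genes, and that of cluster 3 (red, 210 genes with a span, 5.04 kb) lies to the left.

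Most markers of other cell types were low in both clusters. No marker of neutrophils, T cells, NK cells, neurons, dopaminergic neurons or fibroblasts and mural cells reached 0.1 in any of the 4 columns. Gfap, Aqp4, Pdgfra and Cdh5 were at 0.03 or less, but other members of their lists did pass the floor. Of the oligodendrocyte precursor markers Cspg4 did, with a difference of 0.13. Of those of choroid plexus or ependymal cells 1 did, with a difference of -0.03. The glutamate transporter Slc1a3 of astrocytes was at 0.24 and 0.40 in cluster 3 and at 0.54 and 0.71 in cluster 6, while myelin basic protein, Mbp, was at 0.32 and 0.31 against 0.17 and 0.20. All 5 erythroid genes were higher in cluster 6 in both libraries, and they summed to 0.71 and 0.48 in cluster 3 and to 1.98 and 1.87 in cluster 6. Hba-a1 was at 0.24 and 0.14 against 0.61 and 0.55, and Alas2, an erythroid enzyme of heme synthesis, at 0.00 and 0.00 against 0.11 and 0.12. The part of other cells in the differences above was not tested. The endothelial gene Flt1, at 0.55 and 0.37 in cluster 3 and at 0.17 and 0.12 in cluster 6, was the only one of 8 endothelial markers to differ by more than 0.1. Of 18 cell cycle genes, 5 passed the floor and none was called, with Mki67 at 0.10 and 0.11 against 0.02 and 0.02.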

How the data were processed

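The authors processed scRNA-seq reads with Cell Ranger on mm10, normalised each cell to 10000 UMIs, clustered cells of both libraries into 9 groups and deposited the mean per cluster and library. Cells with 200 to 8000 genes and at most 10% mitochondrial content were kept, and doublets and cell barcodes were not analysed here. The deposited values, headed as mean counts, are on a natural log scale by their range and by the methods. Of 26650 rows, 4 with repeated date-like names were left out. Differences, the floor of 0.1 and the size rule of 0.5 were computed in Python 3.11.15 with pandas 2.3.3, and the script was checked on simulated data. Spans are from GENCODE M21 and promoter windows from RefSeq (GRCm38), so start sites can differ from the ends of the spans. Members and gene lists were chosen with earlier results of these data known. Named are the 15 largest differences each way, the 4 largest per list and members against it, study markers, the 5 largest changes between libraries each way, and paralogs called in opposite directions. Other genes named as level or as markers were chosen after their values were seen. Bulk RNA-seq, CUT&RUN and ATAC-seq files were not used. Results for a few genes are not reported here.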

Additional observations from a re-analysis of the deposited data

Results flagged for a closer look

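Among the genes with opposite signs in the 2 libraries are 2 that the text names, and the difference between the libraries was not tested. Fgf13, a growth factor homologue, was higher in cluster 3 by 0.265 in the 6-OHDA library (1.52 against 1.25) and lower by a difference of -0.107 in the 6-OHDA+NDST3 library (0.85 against 0.96). Fcrls differed by 0.109 (1.44 against 1.34) and by -0.0202 (1.00 against 1.02).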

How the results depend on the processing

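No paired analysis was possible because each group is 1 scRNA-seq library and no test was made. With a size rule of 0.25, 535 genes were called for cluster 3, 581 for cluster 6 and 20 for a change between the libraries, and with a size rule of 1 these were 14, 24 and 0. On the log2 scale, where the same 0.5 is a smaller step, they were 366, 347 and 12. Without the mitochondrial and ribosomal classes, as set by gene name, 126 were called for cluster 3. Rescaling the columns to the same total gave 157 and 239, centring on the median 214 and 165, the 6-OHDA library alone 232 and 182, and the 6-OHDA+NDST3 library alone 195 and 149. No gene switched sides under any of these, though only rescaling and centring could have switched one. All 99 called genes on the lists or among the largest differences kept their direction under rescaling and centring. With either library alone the direction was fixed in advance, since a call required the same sign in both. Of the 99, 89 still reached 0.5 under rescaling and 99 under centring. In the 6-OHDA library alone 95 did, and in the 6-OHDA+NDST3 library alone 90. H2-Aa moved most (by 0.468, with either library alone). The medians of the cytokine list (with a floor of 0.25, or in the 6-OHDA library alone) and of the cell cycle list (with a floor of 0.25, or rescaled) took the opposite sign. The counts thus depend on the size rule and the scaling, and with 1 library per group the spread between animals cannot be estimated. Cell numbers and depth per cell were not analysed here.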

Other observations

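Genes outside the lists, chosen after their values were seen, added to both sides. Apoe, Apoc1, Apoc4 and Apoc2 lie within 27.6 kb on chromosome 7 of GRCm38 (19671579 to 19699188), and all 4 were called for cluster 3. Apoc4 was at 0.72 and 0.71 in cluster 3 and at 0.05 and 0.05 in cluster 6. Both membrane chains of the phagocyte NADPH oxidase were called for cluster 3, Cybb at 1.18 and 1.18 against 0.22 and 0.30 and Cyba at 2.42 and 2.40 against 1.71 and 1.71. The elongation factor gene Eef1b2 was at 2.13 and 2.06 against 1.48 and 1.45.

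Among the genes called for cluster 6 (2.33% of those above the floor) were 3 of prostaglandin metabolism. Other genes of this pathway were not counted, so no lean of the pathway can be read from these 3. Ptgs1, which makes the precursor, was at 0.34 and 0.40 in cluster 3 and at 0.93 and 0.98 in cluster 6. Hpgds, which makes prostaglandin D, was at 0.88 and 0.95 against 1.71 and 1.66, and Hpgd, which breaks prostaglandins down, at 0.47 and 0.27 against 1.17 and 0.99. The neighbouring genes Ccl3 and Ccl4, within 16.8 kb on chromosome 11, were both called for cluster 6.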
